A study of Mus musculus with 9 samples.

Results

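Transcripts of 111 solute carrier (Slc) genes were followed in a mouse B-cell lymphoma exposed to a BET bromodomain inhibitor, JQ1 or RG6146, or to the solvent DMSO. The genes were taken by symbol from the GENCODE M21 annotation. This also brought in genes that encode no carrier, such as Slc9a3r1, Slc4a1ap and Slc7a6os, and the pseudogene Slc2a4rg-ps. Every symbol that starts with Slc and a family number was considered, apart from Slc2a1, Slc2a3 and Slc19a1, and a gene was kept when its mean over all 9 libraries reached 5 CPM (read counts scaled to library size). Of 379 such symbols among the 43629 genes measured, 111 were kept, 265 lay below the limit and 3 were left out by name. Slc16a4, with a mean of 5.49 CPM, and Slc35b4, with 5.62 CPM, lay just inside the limit, whereas Slc7a7, with 4.93 CPM, and Slc15a3, with 4.80 CPM, lay just outside. The mean runs over treated and DMSO libraries alike, so a strong fall could take a gene below the limit, as with Slc7a7, at 3.16 CPM after JQ1, 2.2 CPM after RG6146 and 9.15 CPM in DMSO.

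Cells of Eµ-Myc clone 4242, a lymphoma line from mice in which a Myc transgene is driven by the immunoglobulin heavy chain enhancer, were given 1 µM JQ1, 2.5 µM RG6146 or DMSO for 2 h, with 3 cultures per group. All groups therefore carry the same transgene and come from a single clone, and p-values measure the spread between cultures of that clone. QuantSeq 3′ libraries give about one tag per transcript near its polyadenylated end, so CPM were not divided by transcript length. Total gene counts lay between 3410161 and 5031717 per library, and the 111 genes took 0.422% to 0.449% of them. B cell markers were present in all libraries, and their summed level was 322 to 332 CPM after JQ1, 339 to 376 CPM after RG6146 and 589 to 666 CPM in DMSO. Myeloid markers summed to 60.3 to 293 CPM after JQ1, 90.4 to 134 CPM after RG6146 and 171 to 787 CPM in DMSO, with replicate 2 the highest in each group (293, 134 and 787 CPM). All 14 of these myeloid markers had counts. In DMSO replicate 2, S100a8 (321 CPM), Mpo (189 CPM) and S100a9 (137 CPM) were the largest parts of the sum. T and NK cell markers reached at most 6.25, 7.81 and 11.7 CPM in the JQ1, RG6146 and DMSO libraries, with Trac at 0 throughout. Erythroid markers spanned 3.03 to 17.4, 3.9 to 7.85 and 4.99 to 8.69 CPM in the same order, and stromal and endothelial markers 98.4 to 101, 103 to 111 and 132 to 143 CPM, with Dcn at 0. The last sum was almost all Vim (90.1 to 108 CPM) and Pecam1 (4.79 to 33.7 CPM), which other cells also express, and the other members reached at most 0.88 CPM. The part of these marker differences in the results was not tested. In bulk RNA, fewer cells of a type and less RNA per cell cannot be told apart.

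Solute carriers are membrane proteins that move amino acids, sugars, nucleosides, ions, metals and metabolic intermediates across the plasma membrane and the membranes of organelles. The SLC25 family sits mostly in the inner mitochondrial membrane, the SLC35 family carries nucleotide sugars into the Golgi and endoplasmic reticulum, and the SLC30 and SLC39 families move zinc out of and into the cytosol. Lymphoma cells depend on amino acid carriers such as SLC7A5 and SLC1A5, and in human cells MYC has been reported to raise their transcription. BET proteins bind acetylated histones at promoters and enhancers and help transcription to elongate, and JQ1 and RG6146 displace them.

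The transporter genes moved in both directions. After JQ1, 24 of the 111 genes were higher and 22 lower than in DMSO at an adjusted p below 0.05 (edgeR's quasi-likelihood test, Benjamini-Hochberg over 11002 tested genes), which is 41.4% of them. Over all tested genes, the share called after JQ1 was 28.9%, with 13.6% higher and 15.4% lower. After RG6146, 21 genes were higher and 19 lower, or 36%, where the share over all tested genes was 26%, with 12.5% higher and 13.5% lower. The median log2 fold change of the 111 genes was -0.04 after JQ1 and 0.01 after RG6146, and over all tested genes it was 0.01 after each, so medians lay near 0 in both. A called change over 2-fold was seen for 3 of the 111 genes after JQ1 and for 3 after RG6146, or 2.7%, against 7.47% and 6.9% of all tested genes. The JQ1 and DMSO libraries did not overlap for 62 genes, 55.9% of the 111 against 42.6% of all tested genes, and the RG6146 and DMSO libraries for 57, 51.4% against 40.9%. The tested genes were not held to the 5 CPM limit of the 111, so these shares compare genes of unlike level. When only genes at a mean of 10 CPM or more were fitted, 2416 of 7410 were called after JQ1 and 2187 after RG6146. Of the transporter genes called above, 40 after JQ1 and 35 after RG6146 reached that level, and all of these stayed called. The share of transporter genes called in that fit was not taken, so genes of like level were not compared.

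Both comparisons use the same DMSO libraries, so their results are given side by side. Of the 111 genes, 20 were called higher after both compounds, 15 lower after both and 0 in opposite directions, while 11 were called after JQ1 only and 5 after RG6146 only. The same counts were not made over all tested genes, so they cannot set the transporter genes apart. Of all 11002 tested genes, only 1 was called between the 2 compounds. Of the 24 genes higher after JQ1, 20 stayed called whichever single library was left out, and of the 22 lower, 10 did. After RG6146 these numbers were 13 of 21 and 10 of 19. The number lower after JQ1 dropped to 12 without JQ1 replicate 1 and to 10 without both JQ1 replicate 2 and DMSO replicate 2. The number lower after RG6146 dropped to 10 without RG6146 replicate 1 and to 12 without that same pair. The split also moved with the scaling. With library size in place of TMM, 17 rose and 28 fell after JQ1, and 13 rose and 27 fell after RG6146. Rises that ended with this scaling were those of Slc25a3, Slc25a4, Slc25a15, Slc25a51, Slc39a6, Slc3a2 and Slc7a5 after JQ1 (adjusted p = 0.0608 to 0.22), and after RG6146 (adjusted p = 0.052 to 0.164) among others those of Slc25a3, Slc25a4, Slc25a15, Slc25a44, Slc39a6, Slc3a2 and Slc16a10. With the ERCC spike-ins as the scale, 4 rose (Slc26a2, Slc30a1, Slc35e3 and Slc9a3r1) and 5 fell (among them Slc28a2, Slc2a12, Slc35g1 and Slc39a1) after JQ1, and after RG6146 6 rose (the same 4 with Slc4a7 and Slc7a6os) and 4 fell (Slc28a2, Slc2a12, Slc35g1 and Slc39a1). With ERCC scaling and the replicate number as a block, 22 rose and 20 fell after JQ1, and 21 rose and 14 fell after RG6146. With DESeq2 in place of edgeR, 31 of the 46 calls after JQ1 and 23 of the 40 after RG6146 stayed. Those that ended after JQ1 include Slc39a14, Slc25a25, Slc25a45, Slc25a15 and Slc29a3 (DESeq2 adjusted p = 0.0723 to 0.168). After RG6146 they include Slc25a45, Slc25a15, Slc25a44, Slc29a3, Slc35e2, Slc16a10 and Slc48a1 (DESeq2 adjusted p = 0.0609 to 0.161). No called gene changed direction under any of the alternatives tried. The 60 genes called after neither compound had log2 fold changes of -0.72 to 0.43 after JQ1 and -0.64 to 0.57 after RG6146.

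**Figure D1:**
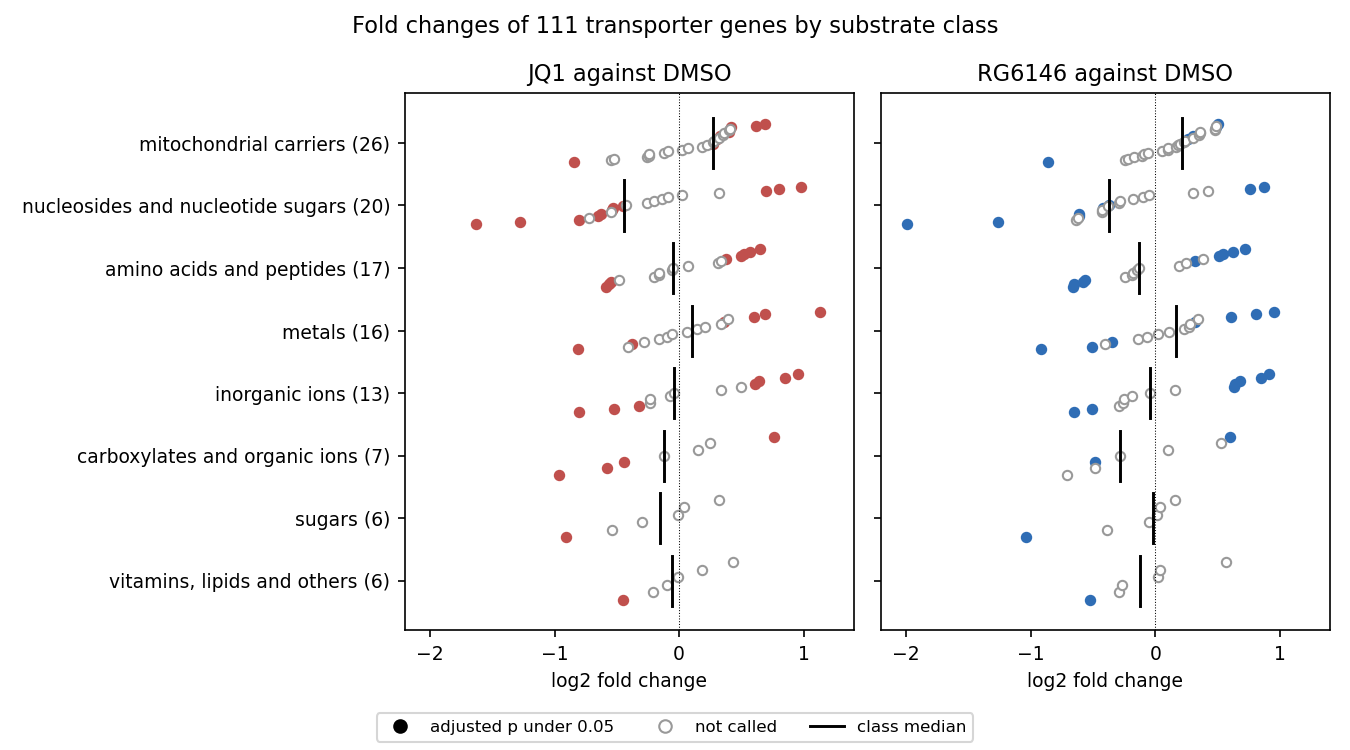
Log2 fold change of each of the 111 transporter genes, after JQ1 (left) and after RG6146 (right) against DMSO, grouped by substrate class with the number of genes in parentheses. Classes were set by family number alone. Filled points have an adjusted p under 0.05, open points do not, and black bars are class medians, which were lowest for nucleosides and nucleotide sugars (-0.44 and -0.38) and highest for mitochondrial carriers (0.27 and 0.21).

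The promoters of strongly changed genes are printed here to show the GC boxes that were counted in genes that rose and genes that fell. RefSeq windows of 300 bases (250 before to 50 after the start; build GRCm38.p6) matched 84 of the 111 genes. The windows are those of Slc30a1 (chr1:191906531-191906830, plus strand), Slc35e3 (chr10:117746309-117746608, minus strand) and Slc38a2 (chr15:96699679-96699978, minus strand), which rose, and of Slc35g1 (chr19:38395730-38396029, plus strand) and Slc28a2 (chr2:122426185-122426484, plus strand), which fell. Capitals mark the GC box GGGCGG or, on the other strand, CCGCCC, the core bound by SP and KLF family factors.
Slc30a1: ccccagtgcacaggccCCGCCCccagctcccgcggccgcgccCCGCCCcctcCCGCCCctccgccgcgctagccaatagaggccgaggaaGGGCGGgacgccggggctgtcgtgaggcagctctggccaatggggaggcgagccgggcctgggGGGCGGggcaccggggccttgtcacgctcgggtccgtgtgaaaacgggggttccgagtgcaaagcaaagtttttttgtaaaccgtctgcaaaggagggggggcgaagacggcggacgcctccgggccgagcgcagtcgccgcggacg
Slc35e3: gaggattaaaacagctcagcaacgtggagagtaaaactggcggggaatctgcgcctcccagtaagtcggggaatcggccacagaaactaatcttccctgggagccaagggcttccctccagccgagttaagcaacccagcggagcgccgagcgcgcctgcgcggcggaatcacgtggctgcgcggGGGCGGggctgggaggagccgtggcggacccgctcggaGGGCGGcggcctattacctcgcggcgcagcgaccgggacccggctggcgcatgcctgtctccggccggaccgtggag
Slc38a2: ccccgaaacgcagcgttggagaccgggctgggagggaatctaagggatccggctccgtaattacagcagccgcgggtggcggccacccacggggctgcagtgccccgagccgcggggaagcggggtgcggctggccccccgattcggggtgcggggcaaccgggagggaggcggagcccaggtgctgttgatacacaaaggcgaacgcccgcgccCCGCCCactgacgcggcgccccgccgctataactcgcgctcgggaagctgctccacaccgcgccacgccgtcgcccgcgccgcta
Slc35g1: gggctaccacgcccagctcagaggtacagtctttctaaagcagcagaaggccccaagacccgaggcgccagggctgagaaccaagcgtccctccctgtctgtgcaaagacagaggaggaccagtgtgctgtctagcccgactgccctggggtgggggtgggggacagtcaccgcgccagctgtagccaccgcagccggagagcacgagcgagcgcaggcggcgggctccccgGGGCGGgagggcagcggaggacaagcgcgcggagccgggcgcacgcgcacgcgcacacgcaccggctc
Slc28a2: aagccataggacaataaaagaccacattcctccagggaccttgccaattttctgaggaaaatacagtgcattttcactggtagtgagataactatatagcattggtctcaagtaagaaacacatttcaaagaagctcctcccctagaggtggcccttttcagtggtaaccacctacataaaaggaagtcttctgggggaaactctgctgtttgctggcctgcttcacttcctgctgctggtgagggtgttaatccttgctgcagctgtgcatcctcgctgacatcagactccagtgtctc
The Slc30a1 window holds 5 GC boxes, that of Slc35e3 2, those of Slc38a2 and Slc35g1 1 each, and that of Slc28a2 0. The Slc35e3 window also has 1 E box (CACGTG, the core bound by MYC with MAX), which was found in 14.3% of the 84 windows and 11.2% of the windows of all tested genes. By JQ1 call, it was in 1 of 15 windows of genes that rose (6.67%), 1 of 18 that fell (5.56%) and 10 of 51 not called (19.6%). Over all tested genes these shares were 11.7%, 10.8% and 11.2%, and none was tested.

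Among genes with a window, GGGCGG on either strand was present in 14 of 15 that rose after JQ1 (93.3%), in 8 of 18 that fell (44.4%) and in 41 of 51 that were not called (80.4%). Over all tested genes the shares were 77.4% for those that rose, 56.8% for those that fell and 67.7% for those not called, and 35.9% of all RefSeq windows of this length held the motif. No test was made of these shares. The median GC content was 65.7% for the transporter genes that rose and 53.7% for those that fell, against 64.3% and 59.7% over all tested genes. The amino acid response element core TGATGNAA, searched on both strands, was in 2 of 84 windows, 2.38% against 2.11% of all tested genes. The AP-1 motif (TGACTCA or TGAGTCA) was in 1 window, that of Slc7a1, 1.19% against 2.88%. These are descriptions of the letters in 1 window per gene, and the last 30 bases of the window were found in a GENCODE transcript of the gene for 73 of the 84. The genes that rose were also shorter, with a median span of 17.4 kb, against 33.2 kb for those that fell and 28.6 kb for those not called, where all tested genes had 22.3, 27.6 and 16 kb.

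**Figure D2:**
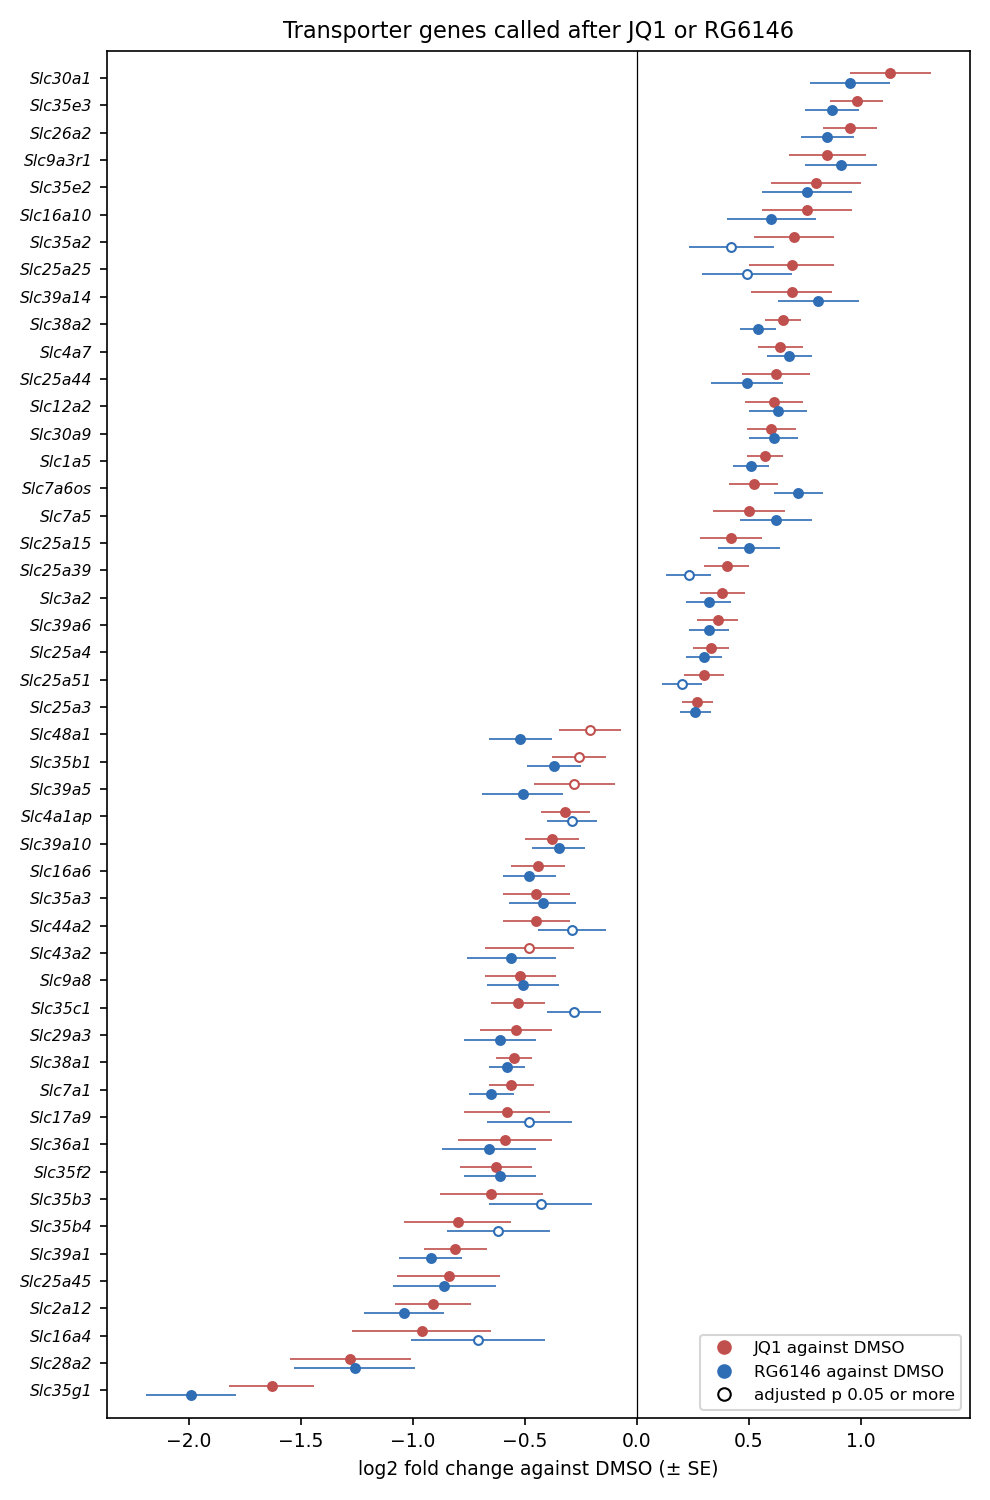
Log2 fold change against DMSO, with its standard error, of transporter genes called after JQ1 (red) or RG6146 (blue), ordered by the JQ1 value. Open points had an adjusted p of 0.05 or more in that comparison. Slc30a1 has the highest JQ1 value (1.13) and Slc35g1 the lowest values after both compounds (-1.63 and -1.99).

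Among 17 genes put by family number under amino acids and peptides, 5 rose and 3 fell after JQ1, and 5 rose and 4 fell after RG6146. For this and each class below, the shares to set beside the counts are those over all tested genes. They were 13.6% higher and 15.4% lower after JQ1, and 12.5% and 13.5% after RG6146. No class was tested against them, and the classes are small. Slc7a6os, which encodes no carrier, is counted among the rises after both compounds. Slc38a2 encodes SNAT2, a sodium-coupled importer of neutral amino acids that is known to be induced by amino acid starvation. It had 239, 219 and 241 CPM after JQ1, 210, 207 and 232 CPM after RG6146 and 154, 143 and 148 CPM in DMSO. Every treated library lay above every DMSO library. The log2 fold changes were 0.65 ± 0.08 after JQ1 (SE, adjusted p = 6.4e-06) and 0.54 ± 0.08 after RG6146 (adjusted p = 4.9e-05). Slc38a1, its paralog SNAT1, lies beside it on chromosome 15 on the same minus strand (mm10 chr15:96571418-96642913, with Slc38a2 at chr15:96687392-96699730) and moved the other way. It had 76.2, 78.8 and 80.3 CPM after JQ1, 76.8, 77.9 and 74.7 CPM after RG6146 and 120, 115 and 108 CPM in DMSO. The groups again did not overlap, and the log2 fold changes were -0.55 ± 0.08 (adjusted p = 6.2e-05) and -0.58 ± 0.08 (adjusted p = 3.8e-05).

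Slc1a5 encodes ASCT2, the glutamine carrier of many tumour cells. Its levels were 180, 164 and 186 CPM after JQ1, 175, 171 and 163 CPM after RG6146 and 118, 117 and 123 CPM in DMSO. That is a rise of 0.57 ± 0.08 (adjusted p = 2.8e-05) and 0.51 ± 0.08 (adjusted p = 9.3e-05) on the log2 scale, with no overlap. Slc7a5 (LAT1, which exchanges large neutral amino acids) and Slc3a2 (the CD98 heavy chain that LAT1 needs to reach the plasma membrane) also rose. Slc7a5 had 51.6, 65.5 and 53.3 CPM after JQ1, 59.3, 56.9 and 70.0 CPM after RG6146 and 31.2, 49.8 and 40.5 CPM in DMSO, with log2 fold changes of 0.50 ± 0.16 (adjusted p = 0.0314) and 0.62 ± 0.16 (adjusted p = 0.0101). Slc3a2 had 89.0, 85.7 and 87.6 CPM after JQ1, 73.0, 88.3 and 89.7 CPM after RG6146 and 61.9, 69.1 and 70.5 CPM in DMSO, with log2 fold changes of 0.38 ± 0.10 (adjusted p = 0.00596) and 0.32 ± 0.10 (adjusted p = 0.0200). DMSO replicate 2 was the highest control for Slc7a5, close below the lowest treated library, and DMSO replicate 3 for Slc3a2. The JQ1 call of Slc7a5 ended without JQ1 replicate 2 or 3 or DMSO replicate 1 or 3 (adjusted p = 0.0537 to 0.102), and the RG6146 call of Slc3a2 without RG6146 replicate 2 or 3 or DMSO replicate 1 (adjusted p = 0.0769 to 0.0839) and with DESeq2 (adjusted p = 0.0653). Library size scaling ended the JQ1 call of Slc7a5 (adjusted p = 0.0766) and both calls of Slc3a2 (adjusted p = 0.0608 and 0.124).

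Slc7a1 encodes CAT1, an importer of arginine and lysine. It had 89.9, 91.6 and 96.7 CPM after JQ1, 90.3, 88.1 and 83.1 CPM after RG6146 and 153, 145 and 114 CPM in DMSO, and it fell by 0.56 ± 0.10 (adjusted p = 3.4e-04) and by 0.65 ± 0.10 (adjusted p = 9.8e-05) on the log2 scale. All 6 treated libraries lay below the lowest DMSO library. Slc36a1, a proton-coupled carrier of lysosomal amino acids, averaged 5.96 CPM after JQ1, 5.66 CPM after RG6146 and 9.0 CPM in DMSO (log2 fold changes of -0.59 ± 0.21 and -0.66 ± 0.21, adjusted p = 0.0451 and 0.0283). Its JQ1 call ended without any of 7 of the 9 libraries (all but RG6146 replicates 1 and 3, adjusted p = 0.0564 to 0.11) and its RG6146 call without RG6146 replicate 1 or 2 or DMSO replicate 2 or 3 (adjusted p = 0.0613 to 0.0993). Slc43a2 (LAT4), a carrier of branched-chain amino acids, was called lower after RG6146 (-0.56 ± 0.20, adjusted p = 0.0429), which ended without any single RG6146 or DMSO library (adjusted p = 0.0585 to 0.141), and had -0.48 ± 0.20 after JQ1 (adjusted p = 0.0734). Slc7a6, the light chain y+LAT2, was not called, with log2 fold changes of 0.07 ± 0.14 and 0.19 ± 0.14 (adjusted p = 0.759 and 0.373). Slc7a6os, which is named for its place opposite Slc7a6 and encodes no carrier, rose by 0.52 ± 0.11 (adjusted p = 0.00138) and 0.72 ± 0.11 (adjusted p = 7.7e-05). The taurine importer Slc6a6 had log2 fold changes of -0.20 ± 0.08 and -0.13 ± 0.08 (adjusted p = 0.0846 and 0.268). Slc7a11, the cystine exchanger, had at most 2 counts in a library and was not tested.

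Zinc carriers held the strongest rise. Of 16 genes for metals, 4 rose after each compound, and 2 fell after JQ1 and 3 after RG6146. Slc30a1 (ENSMUSG00000037434), the zinc exporter of the plasma membrane, had 13.3, 15.9 and 18.3 CPM after JQ1, 13.5, 14.9 and 13.6 CPM after RG6146 and 7.33, 6.54 and 7.67 CPM in DMSO. All 6 treated libraries lay far above the highest DMSO library. Its levels averaged 15.8 ± 2.5 CPM after JQ1, 14 ± 0.81 CPM after RG6146 and 7.18 ± 0.58 CPM in DMSO (SD, n = 3 each), and the log2 fold changes were 1.13 ± 0.18 (adjusted p = 1.4e-04) and 0.95 ± 0.18 (adjusted p = 7.4e-04). Slc30a9, an exporter of zinc from mitochondria, rose by 0.60 ± 0.11 and 0.61 ± 0.11 (adjusted p = 5.7e-04 and 6.0e-04). Slc39a14, an importer of zinc, iron and manganese, rose by 0.69 ± 0.18 and 0.81 ± 0.18 (adjusted p = 0.00874 and 0.00303). Its JQ1 call ended with DESeq2 (adjusted p = 0.0848). Slc39a6, a zinc importer of the plasma membrane, rose by 0.36 ± 0.09 and 0.32 ± 0.09 (adjusted p = 0.00493 and 0.0125), but both calls ended with library size scaling (adjusted p = 0.0754 and 0.114), and the RG6146 call also with DESeq2 (adjusted p = 0.0631) and without DMSO replicate 2 (adjusted p = 0.0556).

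Slc39a1 (ZIP1), another zinc importer, moved the other way. It had 25.3, 25.5 and 19.3 CPM after JQ1, 21.7, 19.5 and 23.9 CPM after RG6146 and 35.4, 46.3 and 41.7 CPM in DMSO, and fell by 0.81 ± 0.14 (adjusted p = 3.0e-04) and by 0.92 ± 0.14 (adjusted p = 1.1e-04) on the log2 scale. The treated and DMSO libraries did not overlap. Slc39a10, an importer that mouse B cells need for their survival, had 26.1, 21.4 and 26.1 CPM after JQ1, 22.8, 26.1 and 26.1 CPM after RG6146 and 32, 32.1 and 31.6 CPM in DMSO. Its log2 fold changes of -0.38 ± 0.12 and -0.35 ± 0.12 were called (adjusted p = 0.0266 and 0.0401), but the first call ended without JQ1 replicate 2 or any DMSO library (adjusted p = 0.0543 to 0.111) and the second without any of 7 libraries (all but JQ1 replicates 2 and 3, adjusted p = 0.0501 to 0.154). Slc39a5 was called lower after RG6146 (-0.51 ± 0.18, adjusted p = 0.0464), a call that ended without any single one of the 9 libraries (adjusted p = 0.051 to 0.183). Slc39a7, which releases zinc from the endoplasmic reticulum, had log2 fold changes of 0.14 ± 0.12 and 0.02 ± 0.12 (adjusted p = 0.424 and 0.917), and its exons overlap the transcript Gm20427 on the same strand.

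Of 20 genes put by family number under nucleosides and nucleotide sugars, 3 rose and 8 fell after JQ1, and 2 rose and 6 fell after RG6146. Their median log2 fold changes were -0.44 and -0.38, where the median over all tested genes was 0.01 after each. Some of the 20, such as Slc35b1 and Slc35e3, have another substrate or none established, so these values describe families and not a substrate. Whichever single library was left out, 3 of the 3 rises and 4 of the 8 falls after JQ1 stayed called, and 2 of the 2 rises and 4 of the 6 falls after RG6146. Slc35g1 (ENSMUSG00000044026, mm10 chr19:38395980-38405610) fell the most of the 111 genes. The family number puts it here, and in human cells its product has been described as a partner of the calcium sensor STIM1. It had 6.73, 9.04 and 9.15 CPM after JQ1, 5.93, 7.09 and 6.36 CPM after RG6146 and 21.8, 32.7 and 23.0 CPM in DMSO. No treated library came near the DMSO libraries, and the levels were 3.10-fold lower after JQ1 (log2 fold change -1.63 ± 0.19, adjusted p = 5.9e-06) and 3.97-fold lower after RG6146 (-1.99 ± 0.20, adjusted p = 1.1e-06). DMSO replicate 2, which had the highest myeloid marker sum, was also the highest here. Without that library and JQ1 replicate 2, the log2 fold changes were -1.50 and -1.79.

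Slc28a2 (mm10 chr2:122426477-122461137) encodes a sodium-coupled importer of purine nucleosides. It had 7.16, 3.09 and 4.44 CPM after JQ1, 5.24, 3.54 and 6.13 CPM after RG6146 and 11.5, 12.5 and 12.2 CPM in DMSO, with log2 fold changes of -1.28 ± 0.27 (adjusted p = 0.00166) and -1.26 ± 0.27 (adjusted p = 0.00201). The DMSO libraries agreed closely and lay above all treated libraries. Slc29a3, the equilibrative nucleoside carrier of lysosomes, fell by 0.54 ± 0.16 and by 0.61 ± 0.16 (adjusted p = 0.0177 and 0.00898), and its JQ1 call ended without JQ1 replicate 1 or DMSO replicate 3 (adjusted p = 0.0558 to 0.076). Slc29a1 (ENT1), the main equilibrative carrier of the plasma membrane, had 50.7, 42.8 and 48.4 CPM after JQ1, 50.4, 44.5 and 40 CPM after RG6146 and 47.6, 44.9 and 47 CPM in DMSO. Its groups overlapped, with log2 fold changes of 0.02 ± 0.11 and -0.05 ± 0.11 (adjusted p = 0.892 and 0.79).

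Slc35f2 fell by 0.63 ± 0.16 (adjusted p = 0.00552) and by 0.61 ± 0.16 (adjusted p = 0.00764), with 17.3, 13.1 and 16.2 CPM after JQ1, 15.5, 15.7 and 16.1 CPM after RG6146 and 21.1, 28.4 and 23.0 CPM in DMSO. Without DMSO replicate 2 and JQ1 replicate 2, its JQ1 value was -0.39 (adjusted p = 0.107). Slc35c1, the GDP-fucose carrier of the Golgi, fell by 0.53 ± 0.12 after JQ1 (adjusted p = 0.00285) and had -0.28 ± 0.12 after RG6146 (adjusted p = 0.089). Slc35b3, which carries the sulfate donor PAPS, and Slc35b4, a carrier of UDP sugars, were called lower after JQ1 (-0.65 ± 0.23 and -0.80 ± 0.24, adjusted p = 0.046 and 0.0176) and had -0.43 ± 0.23 and -0.62 ± 0.23 after RG6146 (adjusted p = 0.183 and 0.0593). The JQ1 call of Slc35b3 ended without any of 7 libraries (all but RG6146 replicates 2 and 3, adjusted p = 0.0552 to 0.125), and that of Slc35b4 without JQ1 replicate 1 or DMSO replicate 2 (adjusted p = 0.0556 to 0.0593). The UDP-N-acetylglucosamine carrier Slc35a3 was called lower after both (-0.45 ± 0.15 and -0.42 ± 0.15, adjusted p = 0.0321 and 0.0475), but the first call ended without any JQ1 library or DMSO replicate 1 or 2 (adjusted p = 0.0525 to 0.12) and the second without any of 8 libraries (all but RG6146 replicate 3, adjusted p = 0.0501 to 0.198). Slc35b1, which brings ATP into the endoplasmic reticulum, was called lower after RG6146 (-0.37 ± 0.12, adjusted p = 0.0232) and had -0.26 ± 0.12 after JQ1 (adjusted p = 0.0963), and its call ended without RG6146 replicate 1 or 3 or DMSO replicate 2 or 3 (adjusted p = 0.0666 to 0.136). The CMP-sialic acid carrier Slc35a1 had log2 fold changes of -0.55 ± 0.21 and -0.38 ± 0.21 (adjusted p = 0.0633 and 0.199).

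Rises in the same class came from Slc35e3, Slc35e2 and Slc35a2. Slc35e3, whose substrate is not established, had 54.5, 50.7 and 61.2 CPM after JQ1, 53.6, 43.3 and 57.5 CPM after RG6146 and 28.2, 30.4 and 25.9 CPM in DMSO, well apart. Its log2 fold changes were 0.98 ± 0.12 (adjusted p = 1.1e-05) and 0.87 ± 0.12 (adjusted p = 4.4e-05). Slc35e2 rose by 0.80 ± 0.20 and 0.76 ± 0.20 (adjusted p = 0.00599 and 0.00969), and its JQ1 value had an adjusted p of 0.109 without DMSO replicate 2 and JQ1 replicate 2. Its exons overlap those of Gm16023 on the opposite strand, whose log2 fold changes were 0.49 and 0.41. Slc35a2, the UDP-galactose carrier, rose by 0.70 ± 0.18 after JQ1 (adjusted p = 0.00775) and had 0.42 ± 0.19 after RG6146 (adjusted p = 0.108).

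**Figure D3:**
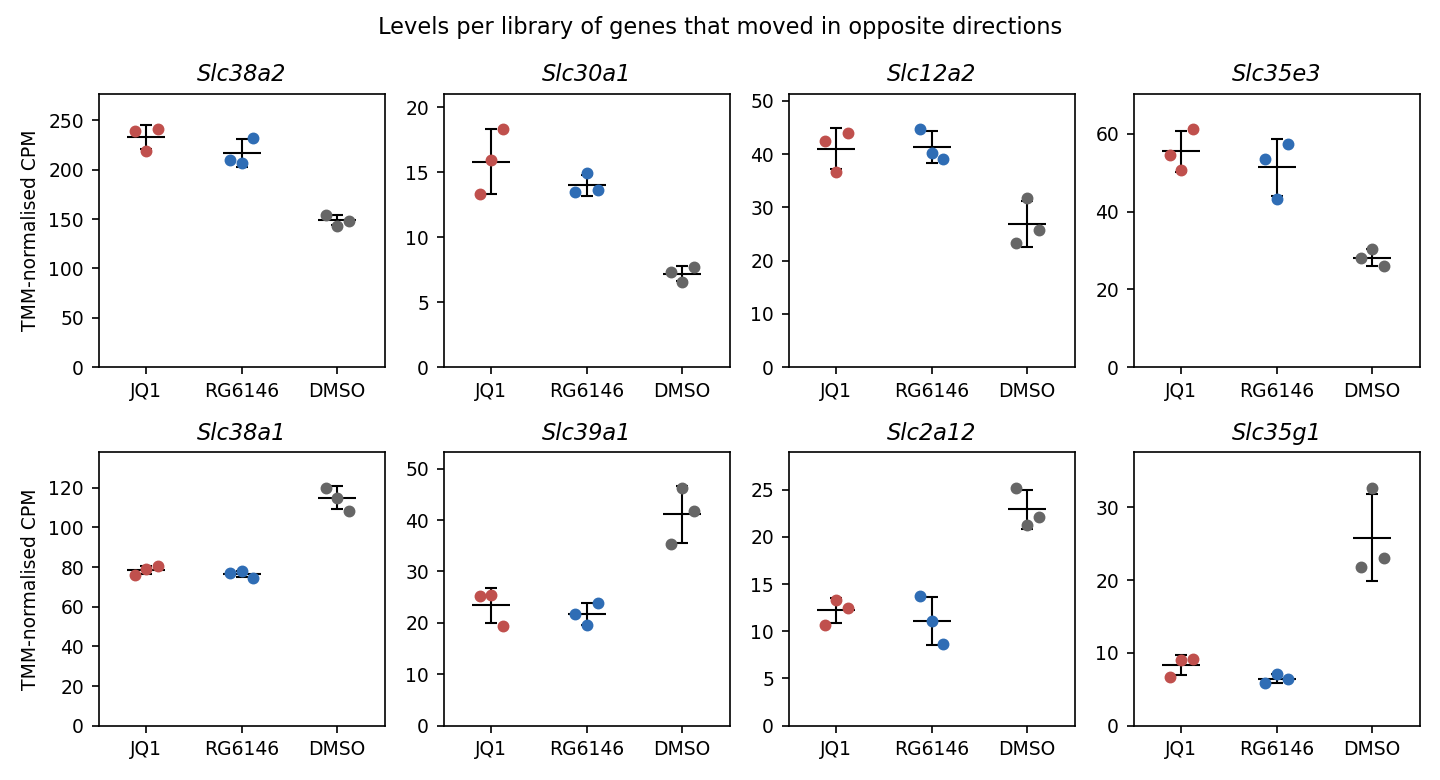
TMM-normalised CPM of 8 transporter genes in each library (points), with the group mean and SD (black), for JQ1, RG6146 and DMSO. The upper row holds genes that rose, Slc38a2, Slc30a1, Slc12a2 and Slc35e3, and the lower row genes that fell, Slc38a1, Slc39a1, Slc2a12 and Slc35g1. In each panel the treated libraries lie on one side of the DMSO libraries. The lists of named rises and falls held only called genes with such groups, so the separation is no added support.

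Genes of the inorganic ion class moved both ways. The class follows the family number in the symbol, so it also counts Slc9a3r1 and Slc4a1ap, which encode no carrier. Of 13 genes, 4 rose and 3 fell after JQ1, and 5 rose and 2 fell after RG6146. Slc12a2 (NKCC1), which brings sodium, potassium and chloride into the cell, had 42.5, 36.7 and 43.9 CPM after JQ1, 44.7, 40.2 and 39.1 CPM after RG6146 and 23.3, 31.8 and 25.7 CPM in DMSO. All treated libraries lay above the DMSO libraries. Slc12a2 rose by 0.61 ± 0.13 (adjusted p = 0.00131) and 0.63 ± 0.13 (adjusted p = 0.00125).

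Slc26a2, a sulfate importer, had 32.4, 30.2 and 29.5 CPM after JQ1, 27.8, 28.8 and 29.3 CPM after RG6146 and 16.9, 15.6 and 15.1 CPM in DMSO. All treated libraries were well above DMSO, with log2 fold changes of 0.95 ± 0.12 (adjusted p = 1.4e-05) and 0.85 ± 0.12 (adjusted p = 5.6e-05). Slc4a7, a sodium bicarbonate importer, had 97.6, 96.6 and 104 CPM after JQ1, 96.0, 116 and 94.1 CPM after RG6146 and 67.7, 59.1 and 64.3 CPM in DMSO, with log2 fold changes of 0.64 ± 0.10 (adjusted p = 7.8e-05) and 0.68 ± 0.10 (adjusted p = 4.8e-05). Slc9a3r1, which encodes the scaffold NHERF1 and not a carrier, rose by 0.85 ± 0.17 and 0.91 ± 0.16 (adjusted p = 8.0e-04 and 4.9e-04).

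Slc9a8, an exchanger of the Golgi and endosomes, was called lower after both (-0.52 ± 0.16 and -0.51 ± 0.16, adjusted p = 0.0184 and 0.0219). The first call ended without JQ1 replicate 1 or 2 or DMSO replicate 3 (adjusted p = 0.0525 to 0.0877) and the second without RG6146 replicate 1 or 2 or DMSO replicate 3 (adjusted p = 0.062 to 0.09). Slc4a1ap, which is named as an adaptor of an anion exchanger and is not a carrier, was called lower after JQ1 (-0.32 ± 0.11, adjusted p = 0.045) and had -0.29 ± 0.11 after RG6146 (adjusted p = 0.0758). Its call ended without any of 7 libraries (all but RG6146 replicate 3 and DMSO replicate 2, adjusted p = 0.0509 to 0.19). The exons of Slc4a1ap overlap those of Supt7l on the opposite strand by only 63 bases. The log2 fold changes of Supt7l were -0.66 and -0.54. Slc20a1, a phosphate importer, had 83.1, 68.5 and 80.0 CPM after JQ1, 75.0, 73.4 and 65.2 CPM after RG6146 and 81.8, 81.9 and 79.4 CPM in DMSO, and was not called (log2 fold changes of -0.07 ± 0.09 and -0.19 ± 0.09, adjusted p = 0.633 and 0.163).

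Of 26 mitochondrial carriers, the largest class, 7 rose and 1 fell after JQ1, and 4 rose and 1 fell after RG6146. These counts depended on the scaling: with library size in place of TMM, which moved the median of all genes to -0.13 after JQ1 and -0.10 after RG6146, 3 rose and 3 fell after JQ1, and 0 rose and 1 fell after RG6146. Slc25a3, the phosphate carrier that feeds ATP synthase, had 531, 544 and 538 CPM after JQ1, 534, 570 and 503 CPM after RG6146 and 475, 414 and 450 CPM in DMSO. Its groups did not overlap, but the differences of 0.27 ± 0.07 (adjusted p = 0.00869) and 0.26 ± 0.07 (adjusted p = 0.0109) on the log2 scale were small. The first lost its call without DMSO replicate 2 (adjusted p = 0.0535) and with library size scaling (adjusted p = 0.22). The second lost it without RG6146 replicate 2 or DMSO replicate 2 (adjusted p = 0.066 to 0.0666) and with library size scaling (adjusted p = 0.164).

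Of the ADP/ATP carriers of the inner membrane, Slc25a4 was called after both compounds and Slc25a5 after neither. Slc25a4 (ANT1) had 273, 223 and 249 CPM after JQ1, 250, 241 and 239 CPM after RG6146 and 185, 206 and 202 CPM in DMSO. All 6 treated libraries lay above DMSO, with log2 fold changes of 0.33 ± 0.08 (adjusted p = 0.00597) and 0.30 ± 0.08 (adjusted p = 0.0117). The second call ended without DMSO replicate 1 (adjusted p = 0.0555), and with library size scaling the adjusted p was 0.0776 and 0.0873. Slc25a5 (ANT2) had 336, 424 and 342 CPM after JQ1, 454, 432 and 392 CPM after RG6146 and 458, 367 and 370 CPM in DMSO, and its groups overlapped (log2 fold changes of -0.12 ± 0.11 and 0.10 ± 0.11, adjusted p = 0.457 and 0.558). Reads of Slc25a5 may be shared with near-identical copies such as Slc25a5-ps, whose own mean was 0.632 CPM, and how reads with several matches were counted is not given in the sources used here.

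Larger differences in the class came from Slc25a25, Slc25a44 and Slc25a45. Slc25a25, a carrier of ATP-magnesium and phosphate, had 13, 15.7 and 13.3 CPM after JQ1, 10.3, 12.4 and 14.1 CPM after RG6146 and 8.09, 7.39 and 10.5 CPM in DMSO, and rose after JQ1 (0.69 ± 0.19, adjusted p = 0.0117) with 0.49 ± 0.20 after RG6146 (adjusted p = 0.0713). Without DMSO replicate 2 and JQ1 replicate 2 its JQ1 value had an adjusted p of 0.126, and its exons overlap those of Naif1 on the opposite strand, whose log2 fold changes were -0.04 and -0.07. Slc25a44, a branched-chain amino acid carrier, rose by 0.62 ± 0.15 and 0.49 ± 0.16 (adjusted p = 0.00575 and 0.0258), and its RG6146 call ended without RG6146 replicate 3 or DMSO replicate 1 or 2 (adjusted p = 0.0552 to 0.12). Slc25a39, needed for mitochondrial glutathione import, rose by 0.40 ± 0.10 after JQ1 (adjusted p = 0.00526) and had 0.23 ± 0.10 after RG6146 (adjusted p = 0.099). Slc25a45 had 6.10, 5.47 and 5.49 CPM after JQ1, 4.10, 6.07 and 6.82 CPM after RG6146 and 9.78, 10.5 and 10.5 CPM in DMSO, and fell by 0.84 ± 0.23 and by 0.86 ± 0.23 (adjusted p = 0.00865 and 0.00866). Its RG6146 call ended without RG6146 replicate 1 (adjusted p = 0.0512) and its JQ1 call without DMSO replicate 2 and JQ1 replicate 2 (adjusted p = 0.0608). The ornithine carrier Slc25a15 rose by 0.42 ± 0.14 and 0.50 ± 0.14 (adjusted p = 0.0315 and 0.0138), and the NAD carrier Slc25a51 by 0.30 ± 0.09 after JQ1 (adjusted p = 0.0171) with 0.20 ± 0.09 after RG6146 (adjusted p = 0.124). Slc25a15 lost its JQ1 call without JQ1 replicate 1 or 3 or DMSO replicate 1 or 3 (adjusted p = 0.069 to 0.121) and its RG6146 call without RG6146 replicate 1 or DMSO replicate 3 (adjusted p = 0.0543 to 0.0652), and Slc25a51 lost its call without JQ1 replicate 3 or DMSO replicate 3 (adjusted p = 0.0721 to 0.0998). The citrate carrier Slc25a1 (0.35 ± 0.20 and 0.36 ± 0.20, adjusted p = 0.195 and 0.193) and the pyrimidine nucleotide carrier Slc25a33 (0.40 ± 0.18 and 0.48 ± 0.18, adjusted p = 0.117 and 0.0631) were not called. Counts of Slc25a35 differed from those of Rangrf on the opposite strand by at most 1.22% in any library, so the value of Slc25a35 cannot be told apart from that of Rangrf.

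Among 7 genes put by family number under carboxylates and organic ions, 1 rose and 3 fell after JQ1, and 1 rose and 1 fell after RG6146. Slc16a10, a carrier of aromatic amino acids and thyroid hormones, had 14.1, 15.5 and 13.1 CPM after JQ1, 14.4, 12.7 and 11.1 CPM after RG6146 and 7.90, 10.8 and 6.71 CPM in DMSO, with log2 fold changes of 0.76 ± 0.20 (adjusted p = 0.00681) and 0.60 ± 0.20 (adjusted p = 0.0316). The second call ended without RG6146 replicate 1 or 2 or DMSO replicate 1 or 3 (adjusted p = 0.0678 to 0.13). Slc16a6, known in zebrafish as an exporter of ketone bodies, had 41.9, 38.6 and 52.8 CPM after JQ1, 44.0, 37.2 and 47.9 CPM after RG6146 and 59.6, 60.8 and 59.9 CPM in DMSO, and fell by 0.44 ± 0.12 and by 0.48 ± 0.12 (adjusted p = 0.0115 and 0.00707). Its JQ1 call ended without JQ1 replicate 1 or 2 (adjusted p = 0.055 to 0.0604), and its exons overlap those of Amz2 on the opposite strand, whose log2 fold changes were -0.33 and -0.46. Slc16a4, a monocarboxylate carrier by family, and Slc17a9, which loads nucleotides into vesicles, were called lower after JQ1 (-0.96 ± 0.31 and -0.58 ± 0.19, adjusted p = 0.0261 and 0.0284) and had -0.71 ± 0.30 and -0.48 ± 0.19 after RG6146 (adjusted p = 0.0946 and 0.0738). Without JQ1 replicate 1 or 3 or DMSO replicate 1 or 3 the Slc16a4 call ended (adjusted p = 0.0671 to 0.136), and without JQ1 replicate 2 or 3 or DMSO replicate 1 or 2 that of Slc17a9 did (adjusted p = 0.0765 to 0.123). The lactate carrier Slc16a1 (MCT1) had 111, 99.0 and 121 CPM after JQ1, 102, 105 and 112 CPM after RG6146 and 100, 100 and 97.1 CPM in DMSO, and was not called (0.15 ± 0.09 and 0.10 ± 0.09, adjusted p = 0.205 and 0.434). Slc16a3 (MCT4) had 2 to 7 counts per library and Slc11a1 at most 2, and neither was tested.

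The sugar class had 6 genes, of which 1 fell after each compound. The 6 include the pseudogene Slc2a4rg-ps. Slc2a12 (GLUT12), a glucose importer, had 10.7, 13.3 and 12.5 CPM after JQ1, 13.7, 11.1 and 8.63 CPM after RG6146 and 25.2, 21.3 and 22.1 CPM in DMSO. All treated libraries lay well below DMSO, at 1.88-fold lower after JQ1 (log2 fold change -0.91 ± 0.17, adjusted p = 6.7e-04) and 2.05-fold lower after RG6146 (-1.04 ± 0.18, adjusted p = 2.6e-04). Its exons overlap those of Tbpl1 on the opposite strand, whose log2 fold changes were -0.31 and -0.33. Slc5a3, the myo-inositol importer, was not called (0.04 ± 0.17 and 0.16 ± 0.17, adjusted p = 0.882 and 0.543), and it shares exon sequence with Mrps6 on the same strand. Among 6 genes of the remaining families (vitamins, lipids and others), the choline carrier Slc44a2 was called lower after JQ1 (-0.45 ± 0.15, adjusted p = 0.0329) and had -0.29 ± 0.15 after RG6146 (adjusted p = 0.171). That call ended without JQ1 replicate 1 or 3 or DMSO replicate 1 or 2 (adjusted p = 0.0637 to 0.123). The heme carrier Slc48a1 was called lower after RG6146.

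No transporter gene passed the test of RG6146 against JQ1, in which the doses differed. Over all tested genes, 0.00909% were called in this comparison. By DESeq2 the number of transporter genes was also 0. By edgeR 1 of the 111 (0.901%) had an unadjusted p below 0.05, Slc48a1. The share of all tested genes at that unadjusted limit was not counted. Slc48a1 had 13, 16.2 and 16.8 CPM after RG6146 and 18.3, 19.8 and 19.1 CPM after JQ1, against 21.4, 22.2 and 22.5 CPM in DMSO. Its RG6146 and JQ1 libraries did not overlap, and the log2 difference was -0.31 (95% interval -0.62 to -0.01, adjusted p = 0.999 by edgeR). Against DMSO its log2 fold change was -0.52 ± 0.14 after RG6146 (adjusted p = 0.0110) and -0.21 ± 0.14 after JQ1 (adjusted p = 0.286), the first ending without RG6146 replicate 1 (adjusted p = 0.0641). Its exons overlap those of Hdac7 on the opposite strand by only 29 bases. The log2 fold change of Hdac7 was -1.35 after RG6146 and -1.32 after JQ1.

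Slc35c1 and Slc25a5 had the next smallest p-values. Slc35c1 had 33.7, 28.8 and 33.9 CPM after RG6146 and 28, 28.1 and 25.4 CPM after JQ1 (log2 difference 0.24, 95% interval -0.01 to 0.50, adjusted p = 0.999 by edgeR). Slc25a5 had a log2 difference of 0.21 (95% interval -0.02 to 0.44, adjusted p = 0.999 by edgeR). The RG6146 and JQ1 libraries did not overlap for 7 genes, 6.31% of the 111 against 9.93% of all tested genes. None of the 16 genes called after 1 compound only was called between the compounds. The 95% interval lay within 0.5 log2 units of 0, or 1.41-fold, for 72 of the 111 genes and within 1 log2 unit for all 111. For Slc35g1, the gene with the lowest value, the log2 difference was -0.36 (95% interval -0.82 to 0.11).

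**Figure D4:**
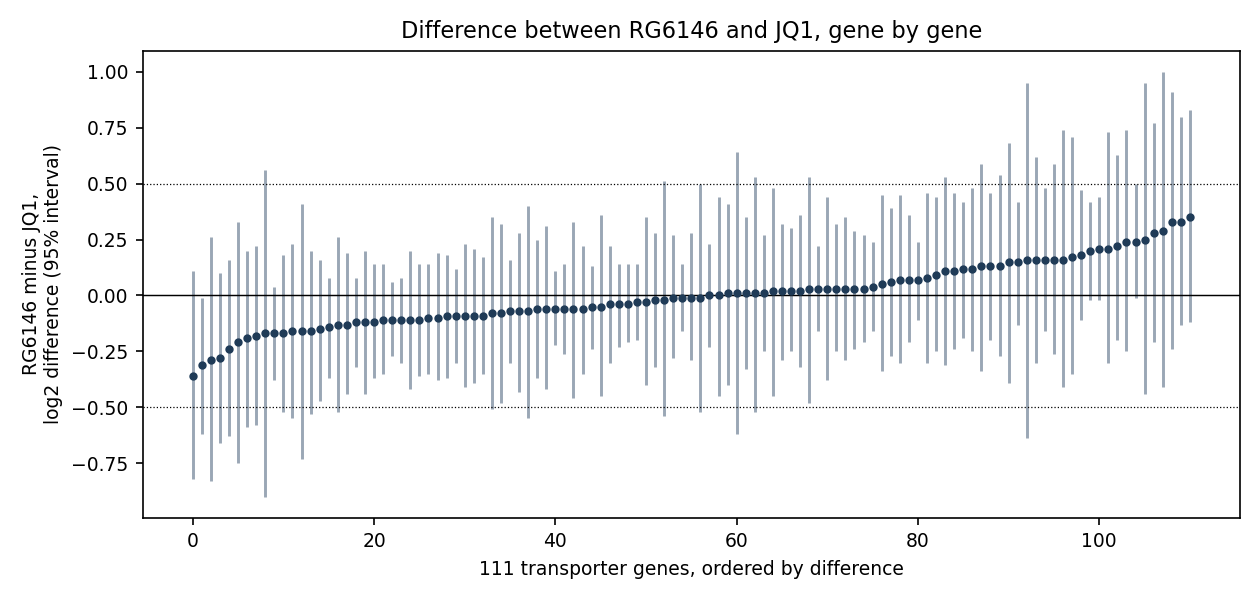
Log2 difference between RG6146 and JQ1 for each of the 111 transporter genes, ordered by size, with 95% intervals, and dotted lines at 0.5 log2 units on either side of 0. The differences run from -0.36 to 0.35 and no gene reached an adjusted p below 0.05.

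Transporters, partners and regulators that carry other symbols were read from a list of 39 genes, of which 32 were tested. After JQ1 10 were higher and 1 lower, and after RG6146 7 were higher and 1 lower, with median log2 fold changes of 0.11 and 0.10. Over all tested genes 13.6% were higher and 15.4% lower after JQ1, and 12.5% and 13.5% after RG6146. Mcu, the pore of the mitochondrial calcium uniporter, averaged 26.2 ± 1.2 CPM after JQ1, 20.8 ± 8.8 CPM after RG6146 and 10 ± 1.0 CPM in DMSO (SD, n = 3 each), with log2 fold changes of 1.38 and 1.05 (adjusted p = 0.00106 and 0.00758), the second ending without DMSO replicate 2 and JQ1 replicate 2 (adjusted p = 0.0589). The heme exporter Flvcr1 rose by 0.99 and 0.95 (adjusted p = 1.4e-05 and 2.8e-05), and the phosphate exporter Xpr1 by 0.79 and 0.75 (adjusted p = 2.7e-04 and 5.0e-04). Bsg, the chaperone of MCT1 and MCT4, rose by 0.73 and 0.59 (adjusted p = 5.8e-05 and 4.7e-04), while its relative Emb was called lower (-0.63 and -0.60, adjusted p = 0.0359 and 0.0494). The JQ1 call of Emb ended without JQ1 replicate 1 or 3 or DMSO replicate 1 or 2 (adjusted p = 0.117 to 0.174), and its RG6146 call without JQ1 replicate 3, any RG6146 library or DMSO replicate 1 or 2 (adjusted p = 0.0584 to 0.173). Wnk1, a kinase that acts through Oxsr1 and Stk39 to switch on NKCC1, rose by 0.69 and 0.67 (adjusted p = 4.0e-06 and 6.1e-06). Oxsr1 was not called, with log2 fold changes of -0.29 and -0.19 (adjusted p = 0.0914 and 0.288), and Stk39 was not tested.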

How the data were processed

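The authors deposited raw counts of reads per gene for 9 libraries, with no scaling applied. Per the submitters' processing notes, the build was mm10 and the tools named were HISAT2 2.1.0, featureCounts, Subread, cutadapt 1.7, FastQC 0.11.5, bcl2fastq 2.17.1.14 and limma, with no role given. Per the labels' protocols, 500 ng of RNA went into QuantSeq libraries, read on a NextSeq 500 as single reads of 75 bases. Which annotation release served, whether strand was used and how multi-mapping reads were handled are not given in the sources used. Of 961 pairs of genes with overlapping exons on opposite strands and at least 5 CPM, 8 had counts within 2% of each other in all 9 libraries. Of 414 pairs on the same strand, 176 did.

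The 92 ERCC spike-in rows stayed out of library sizes and tests. Symbols came from GENCODE M21 and were found for 42548 identifiers and not for 1081. In R 4.3.3, edgeR 4.0.16 kept 11002 genes (filterByExpr, minimum count 10), scaled libraries by TMM and fitted all 9 libraries with the group as the only term and robust moderation. Genes were called at an adjusted p below 0.05. All 111 transporter genes passed the filter. Errors after log2 fold changes are standard errors, levels are TMM-normalised CPM, and marker sums are CPM without TMM. The fit was also run on simulated counts whose spread was taken from these data, so that run cannot show whether calls hold here. Replicates differed by more than sampling noise (chi-square divided by its degrees of freedom was 6.6 to 16.4). Genes near 5 CPM rest on few reads per library, which limits their precision.

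The 111 genes, their classes, the marker and pathway lists and the naming rule were all chosen with earlier results of these data known. Up to 14 rises and 14 falls per compound were named among called genes whose groups did not overlap, with the 3 smallest p-values between compounds, the 2 highest levels per class, a list named whatever its result and the genes nearest the level limit. Alternatives were other scalings, DESeq2 1.42.0, other filters, a replicate block and leaving out libraries. Promoter windows are RefSeq's. Some called genes are counted but not reported by name here, in the text or in the plots that name genes.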

Additional observations from a re-analysis of the deposited data

How the results depend on the processing

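No call of a transporter gene against DMSO changed direction under any alternative. Numbers of calls moved by over 1.5 times under these: with ERCC scaling 4 rose and 5 fell after JQ1, and 6 rose and 4 fell after RG6146. With DESeq2 10 fell after JQ1 and 9 after RG6146, and at an adjusted p below 0.01 10 fell after JQ1, and 12 rose and 11 fell after RG6146. Of the 50 genes at 20 CPM or more, 9 fell after JQ1 and 8 after RG6146, against 22 and 19 of all 111. This set is smaller, so its lower numbers do not show that calls ended. Without DMSO and JQ1 replicate 2 together, 10 fell after JQ1 and 12 after RG6146. With library size scaling 17 rose and 28 fell after JQ1, and 13 rose and 27 fell after RG6146, and the share of rises among all called genes was 27.2% and 29.7%, against 47% and 48% with TMM. Leaving out 1 library gave 12 to 22 falls after JQ1 and 10 to 17 after RG6146. The cause of these differences was not tested. Between RG6146 and JQ1 the number was 0 under each alternative.

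The replicate block gave 25 rises and 21 falls after JQ1, 21 and 16 after RG6146, and 0 between the compounds. Same-numbered libraries correlated at -0.063 to 0.103 in their deviations, and differently numbered ones at -0.089 to 0.074. Only JQ1 replicate 2 with RG6146 replicate 2 (0.103) was above the 0.1 asked of paired samples, and the labels give no shared batch. ERCC factors were nevertheless highest in replicate 1 (1.13 to 1.27) and lowest in replicate 3 (0.799 to 0.946) of every group, and myeloid marker sums highest in replicate 2 of every group. With ERCC scaling, the block gave 22 rises and 20 falls after JQ1, and 21 and 14 after RG6146. Whether a number marks a shared batch was not tested.

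Genes that were not called changed sign. With library size scaling the values after JQ1 were -0.06 for Slc7a6, -0.11 for Slc29a1 and -0.10 for Slc5a3, and after RG6146 -0.08 for Slc39a7, -0.01 for Slc25a5 and -0.01 for Slc16a1. At a mean of at least 10 CPM they were -0.01 for Slc29a1 after JQ1 and -0.01 for Slc39a7 after RG6146. With 1 library left out, the values after JQ1 ranged from -0.12 to 0.17 for Slc7a6, -0.03 to 0.10 for Slc29a1, -0.12 to 0.01 for Slc20a1 and -0.05 to 0.20 for Slc5a3, and after RG6146 from -0.14 to 0.03 for Slc29a1 and -0.04 to 0.15 for Slc39a7. Without both libraries numbered 2, they were -0.19 for Slc7a6 and 0.02 for Slc20a1 after JQ1.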

Other observations

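Of the 265 Slc genes below 5 CPM, 28 had enough counts to be tested and 78 had no count in any library. After JQ1 1 of the 28 rose and 3 fell, and after RG6146 2 rose and 3 fell. The shares over all tested genes were 13.6% higher and 15.4% lower after JQ1, and 12.5% and 13.5% after RG6146. Slc7a7, the light chain y+LAT1, had 4.42, 1.67 and 3.40 CPM after JQ1, 1.60, 2.28 and 2.73 CPM after RG6146 and 6.39, 10.5 and 10.5 CPM in DMSO, and fell by 1.5 ± 0.34 (adjusted p = 0.00251) and by 2.03 ± 0.36 (adjusted p = 3.6e-04) on the log2 scale. Slc15a3, a lysosomal carrier of histidine and peptides, had 2.74, 3.57 and 2.61 CPM after JQ1, 1.60, 3.29 and 2.95 CPM after RG6146 and 10.5, 6.82 and 8.15 CPM in DMSO, and fell by 1.52 ± 0.30 (adjusted p = 9.9e-04) and by 1.72 ± 0.31 (adjusted p = 4.7e-04). Both genes are known from macrophages. The summed myeloid markers were 85.3, 293 and 60.3 CPM after JQ1 and 90.4, 134 and 121 CPM after RG6146. In DMSO they were 171, 787 and 378 CPM. S100a8, the largest of them in DMSO, had 20.7, 79.9 and 12.1 CPM after JQ1 and 54.8, 321 and 205 CPM in DMSO. Csf1r, from the same list, had 26.8, 33.1 and 32.8 CPM after JQ1 and 22.6, 23.8 and 21.2 CPM in DMSO. The part of these markers in the falls of Slc7a7 and Slc15a3 was not tested.

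Slc43a1, a carrier of branched-chain amino acids, fell by 0.90 ± 0.29 after JQ1 (adjusted p = 0.0269) and by 1.66 ± 0.32 after RG6146 (adjusted p = 7.4e-04). Its JQ1 call ended without JQ1 replicate 1 or 3 or DMSO replicate 2 or 3 (adjusted p = 0.0584 to 0.106). The pseudogene Slc22a13b-ps rose by 1.81 ± 0.45 (adjusted p = 0.0047) and 2.34 ± 0.43 (adjusted p = 4.5e-04), with 2.35 to 3.58 CPM after JQ1, 3.65 to 5.45 CPM after RG6146 and 0.569 to 0.959 CPM in DMSO. Slc27a4, a fatty acid carrier, was called higher after RG6146 only (1.05 ± 0.35, adjusted p = 0.0313), and this ended without RG6146 replicate 1 or 3 or any DMSO library (adjusted p = 0.0509 to 0.16).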
